A study of Mus musculus with 16 samples.

Results

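*Gfi1* and *Gfi1b* are paralogous genes for transcriptional repressors, and their transcripts were followed through 5 populations of HSCs sorted by MAC-1. They were taken from the table of counts by gene name, as 2 of its 46078 genes. All HSCs are labelled as WT and B6.SJL. SS HSCs came from untreated mice and were split into SS MAC-1- (n = 3) and SS MAC-1 low (n = 3). Regenerating HSCs came from recipients that had been given 900 cGy of irradiation and 8000 LSK cells 4 weeks before, and were split into 4 week MAC-1- (n = 3), 4 week MAC-1 low (n = 4) and 4 week MAC-1+ (n = 3). The labels give no strain for the recipients, and the study's methods describe LY5.1 (B6SJL) LSK cells given to LY5.2 (C57Bl/6NTac) recipients. Bone marrow was enriched for cKit, and the sorted cells were LSK cells that lacked CD48 and carried CD150. A sample is a small pool of such cells whose RNA was amplified with SMART-Seq v4 before Nextera XT library preparation. The labels do not say which samples came from separate animals, so p-values measure only the spread between these samples, which may be technical.

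GFI1 and GFI1B are zinc finger proteins that bind DNA at sites with the core AATC. Through a SNAG domain at their N terminus they recruit LSD1 (encoded by *Kdm1a*), the CoREST proteins and histone deacetylases, which silence the bound genes. Both are found in HSCs. GFI1 is also known for its part in neutrophil and lymphoid development and for limiting HSC proliferation, and GFI1B for its part in the erythroid and megakaryocytic lineages. Each is known to repress its own gene and that of the other.

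*Gfi1* (ENSMUSG00000029275) lies on the minus strand of chromosome 5, from 107716657 to 107726036 (GRCm38, GENCODE M21), and has 3187 bases of exon. *Gfi1b* (ENSMUSG00000026815) lies on the minus strand of chromosome 2, from 28609450 to 28621982, and has 1830. The transcripts of the paralogs share 3 sequences of 25 bases, read at every position so that they can overlap, and 0 of 50. A non-coding gene on the plus strand, *A430072P03Rik*, overlaps the exons of *Gfi1* by 101 bases. It had at most 1.29 CPM (counts scaled to the size of the library) outside 4 week MAC-1+ HSCs, and 1.19, 13.4 and 0.158 CPM in the 3 samples of 4 week MAC-1+ HSCs. The sources used here do not say that counting used strand, so reads in the shared bases cannot be told apart.

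The promoters are shown because both proteins are known to act on both genes. RefSeq (GRCm38.p6) gave 1 start site for *Gfi1b* and 2 for *Gfi1*, each with 250 bases before it and 50 after it, on the minus strand. Capitals mark the 4 letters AATC or, where the site stands on the other strand, GATT.
Gfi1b, chr2:28621933-28622232: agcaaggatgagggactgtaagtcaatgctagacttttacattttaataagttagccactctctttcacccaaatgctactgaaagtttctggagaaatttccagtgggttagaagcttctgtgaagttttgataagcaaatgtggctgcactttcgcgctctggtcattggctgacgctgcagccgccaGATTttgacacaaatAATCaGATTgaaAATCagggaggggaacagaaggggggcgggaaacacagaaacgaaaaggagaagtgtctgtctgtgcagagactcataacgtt
Gfi1, start site 1, chr5:107725756-107726055: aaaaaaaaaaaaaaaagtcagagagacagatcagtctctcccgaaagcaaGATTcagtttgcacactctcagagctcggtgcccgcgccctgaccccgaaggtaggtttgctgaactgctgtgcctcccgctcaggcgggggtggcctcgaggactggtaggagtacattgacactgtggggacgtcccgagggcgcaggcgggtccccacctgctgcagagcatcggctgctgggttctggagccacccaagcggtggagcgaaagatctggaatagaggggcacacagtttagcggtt
Gfi1, start site 2, chr5:107724294-107724593: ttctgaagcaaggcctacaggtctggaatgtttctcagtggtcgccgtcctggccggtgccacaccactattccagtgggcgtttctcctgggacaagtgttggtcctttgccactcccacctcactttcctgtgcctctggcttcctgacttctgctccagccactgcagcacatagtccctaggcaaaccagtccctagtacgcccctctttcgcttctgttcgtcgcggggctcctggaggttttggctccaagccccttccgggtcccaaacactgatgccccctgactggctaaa
The *Gfi1b* promoter held 4 matches to AATC, all between positions -60 and -30 from the start site, on both strands. Of 32851 promoters of the same length, 10.1% held as many. The match at -33 to -30 lies inside a match to the longer form AAATCA, at -34 to -29, which 4598 of those promoters hold. Start site 1 of *Gfi1* held 1 match to AATC, at -200 to -197, and start site 2 held 0, where 73.1% of promoters held at least 1. Letters of other factors were searched on both strands as well. AGATAA, a form of the site bound by GATA factors, had no match in these 3 windows and a match in 11.2% of promoters. TGTGGT, a form bound by RUNX factors, had none either, against 16.8% of promoters. GAGGAA, a form bound by ETS factors, was the last without a match, against 28.3% of promoters. Other forms of these sites were not searched. The *Gfi1b* window holds TGATAA, which ends like AGATAA. The window of start site 2 of *Gfi1* holds CCGGAA on the other strand, which ends like GAGGAA. Thus the lack of a match holds only for the letters searched. G and C made up 44.3% of the *Gfi1b* window and 58% of that of start site 1 of *Gfi1*. A match is only a match of letters, and no binding was measured.

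Totals ran from 13781278 to 28580658 counts per sample, and 14533 to 17576 genes had at least 1 count. Of all genes, 13661 passed edgeR's filter on low counts and were tested in 1 model of all 16 samples, with an adjusted p (Benjamini-Hochberg) below 0.1 as the threshold. A 0 allows up to 3 counts, or 0.112 to 0.220 CPM depending on the sample, and this floor covers counting error only. The biological coefficient of variation fitted to the gene itself, an estimate of the spread between replicates, was 1.33 for *Gfi1* and 0.642 for *Gfi1b*, against a median of 0.920 over the genes tested. As a check of the sort, *Itgam*, which encodes the CD11b chain of MAC-1, had 3.80 to 30.0 CPM in 4 week MAC-1+, 0.112 to 4.36 in 4 week MAC-1 low and 0 to 1.78 in 4 week MAC-1- HSCs. In SS HSCs it had 0.773 to 1.57 CPM in MAC-1 low and 0 to 0.262 in MAC-1- samples. *Itgb2*, which encodes the CD18 chain of MAC-1, did not follow this order, with 8.55 to 15.9 CPM in 4 week MAC-1+, 3.15 to 22.6 in 4 week MAC-1 low and 18.8 to 31.4 in 4 week MAC-1- HSCs. In SS HSCs it had 1.01 to 36.2 CPM in MAC-1 low and 0 to 10.4 in MAC-1- samples. EdgeR called neither chain in MAC-1+ relative to MAC-1- HSCs at 4 weeks (adjusted p of 0.400 for *Itgam* and 0.864 for *Itgb2*). The HSC genes listed as a check of the cell type (10, among them *Procr*, *Hlf* and *Mecom*) were detected in 9 or 10 cases in every sample.

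*Gfi1* was low or missing in MAC-1- HSCs and present in each MAC-1 low and MAC-1+ sample, both in SS and at 4 weeks. In 4 week MAC-1+ HSCs it had 53.6, 52.4 and 93.9 CPM, and in 4 week MAC-1- HSCs 0.565, 0 and 4.95 CPM. The 4 week MAC-1 low samples, at 22.0, 14.4, 31.3 and 5.40 CPM, lay between those of the other two, and no sample of one of these 3 populations overlapped with a sample of another. The lowest 4 week MAC-1 low sample was only just above the highest 4 week MAC-1- sample. In SS MAC-1 low HSCs *Gfi1* had 19.1, 42.1 and 11.5 CPM, and in SS MAC-1- HSCs 0.0734, 9.12 and 0 CPM, again without overlap. In both MAC-1- populations 1 sample held most of the *Gfi1* counts, 174 of them in SS MAC-1- replicate 2 against 1 and 0 in the others, and 82 in 4 week MAC-1- replicate 3 against 9 and 0. Since these are bulk samples, fewer cells with *Gfi1* and less *Gfi1* RNA per cell cannot be told apart.

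**Figure D1:**
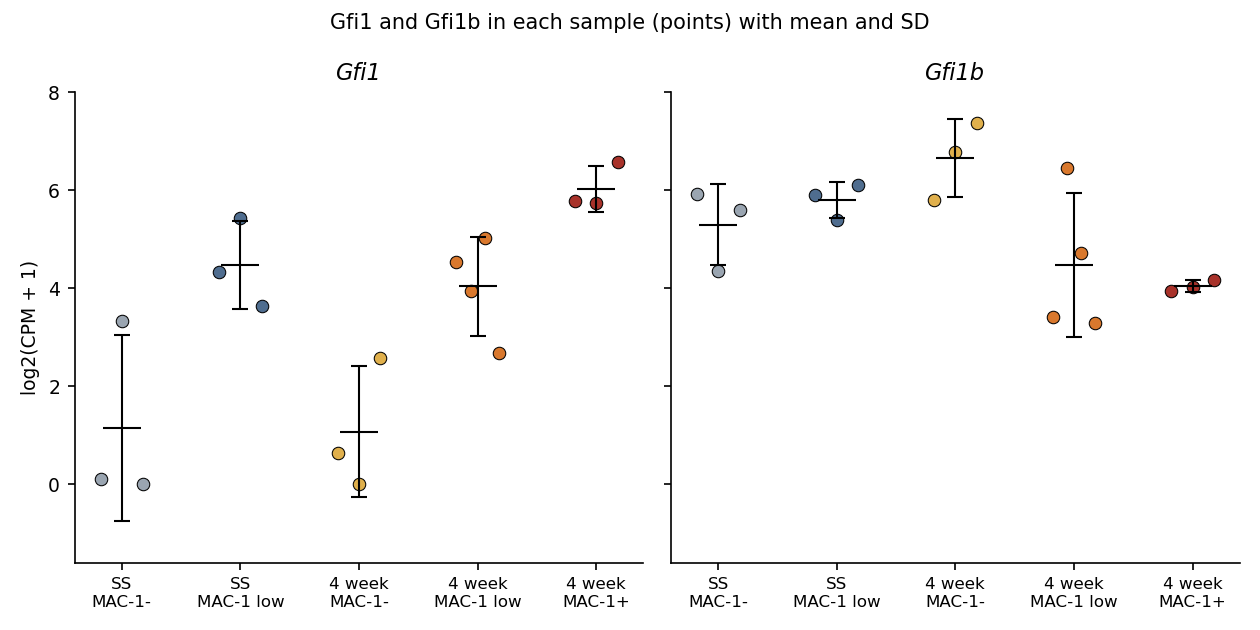
*Gfi1* (left) and *Gfi1b* (right) in each of the 16 samples, as log2(CPM + 1), by population. Points are samples, and lines give the mean and SD of the 3 or 4 samples of a population on that scale. *Gfi1* lies near 0 in 4 MAC-1- samples and highest in the 3 samples of 4 week MAC-1+ HSCs, while *Gfi1b* is highest on average in 4 week MAC-1- HSCs (54.9 to 165 CPM) and varies least in 4 week MAC-1+ HSCs (14.3 to 17.0 CPM).

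Ordered by their mean CPM of *Gfi1*, 4 week MAC-1+ HSCs came first with 66.7 ± 23.6 (SD, n = 3), then SS MAC-1 low HSCs with 24.2 ± 15.9 (SD, n = 3) and 4 week MAC-1 low HSCs with 18.3 ± 11 (SD, n = 4). SS MAC-1- HSCs, with 3.06 ± 5.24 (SD, n = 3), and 4 week MAC-1- HSCs, with 1.84 ± 2.71 (SD, n = 3), came last. In that order the samples of each pair of neighbours overlapped, except those of 4 week MAC-1+ and SS MAC-1 low HSCs, a pair without overlap in which 7.71% of the genes tested were higher in the same way. None of these differences between neighbours passed the threshold (adjusted p of 0.837, 0.992, 0.645 and 0.961, edgeR).

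Despite the separation of the samples, *Gfi1* did not pass the threshold in any comparison with edgeR's quasi-likelihood test. With MAC-1+ set against MAC-1- HSCs at 4 weeks the log2 fold change was 5.18 (standard error 1.96, adjusted p = 0.253). The samples did not overlap and were higher in 4 week MAC-1+ HSCs for 10.2% of the genes tested, and the lack of overlap alone does not set *Gfi1* apart. DESeq2 and limma-voom, run beside edgeR, put this comparison past the threshold, with adjusted p of 0.0228 and 0.0141. With MAC-1 low set against MAC-1- HSCs at 4 weeks the log2 fold change was 3.31 (standard error 1.75, adjusted p = 0.736, edgeR), and 5.23% of genes were higher without overlap. With MAC-1+ set against MAC-1 low HSCs at 4 weeks it was 1.87 (standard error 1.54, adjusted p = 0.967, edgeR), with 3.75% of genes higher without overlap and 0 genes called in either direction. These 3 comparisons share samples and are not independent of each other.

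In SS, the log2 fold change of *Gfi1* in MAC-1 low against MAC-1- HSCs was 2.98 (standard error 1.77, adjusted p = 0.635, edgeR), and 5.95% of the genes tested were higher without overlap. The difference between MAC-1 low and MAC-1- HSCs could be set against that at 4 weeks in an interaction, which was 0.34 (standard error 2.25, adjusted p = 1.00, edgeR). An interaction with such an error leaves room for a large difference in either direction. The mean of both MAC-1 low against MAC-1- differences, a contrast added after the values were seen, was 3.15 (standard error 1.25, unadjusted p = 0.0233, adjusted p = 0.413, edgeR), and DESeq2 gave an adjusted p of 0.0838. In the same contrast edgeR called 0.022% of the genes tested higher.

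Between SS and 4 weeks *Gfi1* differed by less than its spread. The log2 fold change of MAC-1- HSCs at 4 weeks relative to SS was -0.74 (adjusted p = 0.961, edgeR) and that of MAC-1 low HSCs -0.41 (adjusted p = 0.992, edgeR), and the samples overlapped in both. Without SS MAC-1- replicate 2, which leaves 1 count of *Gfi1* in that population, the first became 5.57 and the interaction -5.97, with adjusted p of 0.394 and 0.427 (edgeR). Fold changes fitted against so few counts depend on the prior count and are no bound. The log2 fold change of 4 week MAC-1+ over SS MAC-1- HSCs was 4.44 (adjusted p = 0.315, edgeR), without overlap, where 8.36% of the genes tested were also higher. EdgeR called 0.776% of the genes tested higher here. *Gfi1* passed without SS MAC-1- replicate 2 (adjusted p = 0.0554, edgeR) and with DESeq2 (0.0649).

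**Figure D2:**
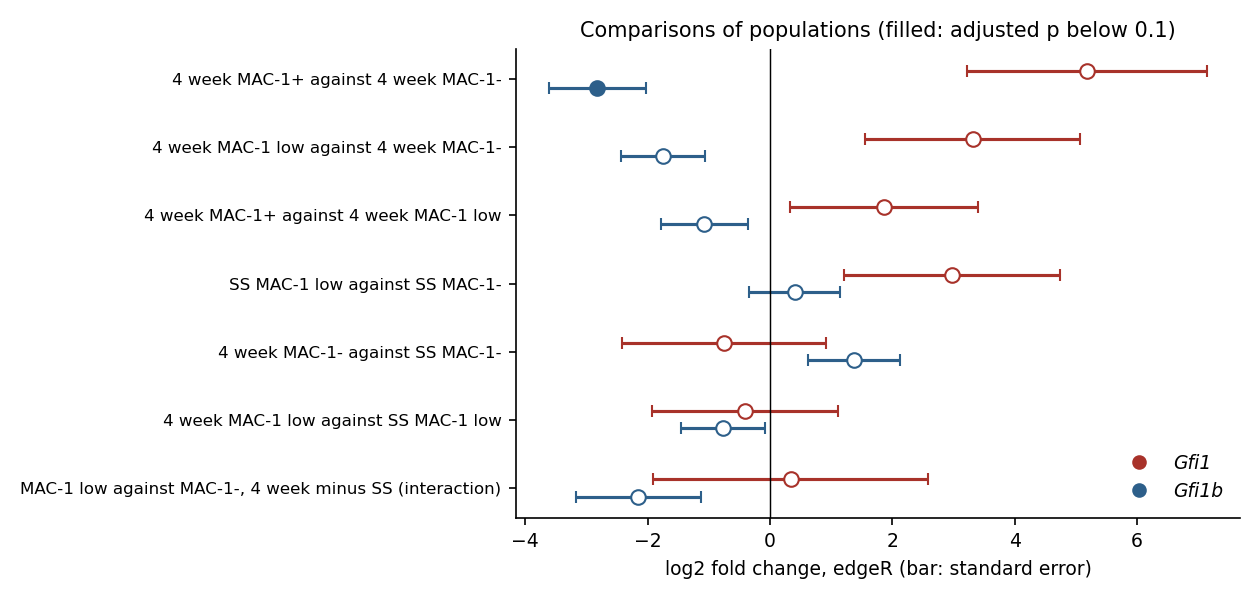
Log2 fold changes of *Gfi1* (red) and *Gfi1b* (blue) in 6 comparisons of populations and in the interaction, from edgeR, with standard errors as bars. Filled points have an adjusted p below 0.1, which holds for *Gfi1b* in MAC-1+ relative to MAC-1- HSCs at 4 weeks (-2.82). The errors of *Gfi1* (1.53 to 2.25) are wider than those of *Gfi1b* (0.687 to 1.02).

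*Gfi1b* took another course and was detected in every sample. It had 54.9, 108 and 165 CPM in 4 week MAC-1- HSCs, and 14.3, 15.2 and 17.0 CPM in 4 week MAC-1+ HSCs, which were the closest to each other of the samples of any population. Among 4 week MAC-1 low HSCs, 3 samples had 9.68, 25.4 and 8.77 CPM, and replicate 2 had 86.7 CPM, within the range of 4 week MAC-1- HSCs. SS HSCs lay between, with 59.7, 19.5 and 47.4 CPM in MAC-1- and 58.8, 41.2 and 67.5 CPM in MAC-1 low samples. Ordered by their mean CPM of *Gfi1b*, 4 week MAC-1- HSCs came first with 109 ± 55.1 (SD, n = 3), then SS MAC-1 low HSCs with 55.8 ± 13.4 (SD, n = 3) and SS MAC-1- HSCs with 42.2 ± 20.6 (SD, n = 3). 4 week MAC-1 low HSCs, with 32.6 ± 36.8 (SD, n = 4), and 4 week MAC-1+ HSCs, with 15.5 ± 1.34 (SD, n = 3), came last. The samples of every pair of neighbours in that order overlapped.

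From MAC-1- to MAC-1+ HSCs at 4 weeks *Gfi1b* fell by 2.82 on the log2 scale (standard error 0.79, adjusted p = 0.0940, edgeR's quasi-likelihood test), or 7.06-fold. Without overlap of the samples, 11.5% of the genes tested were lower, and edgeR called 2.06% of them lower. With a p of rank 416 among 13661 genes, the call stood close to the threshold. The log2 fold change stayed between -3.14 and -2.40 when each sample was left out in turn, but the adjusted p passed 0.1 in 12 of the 16 fits. Without 4 week MAC-1- replicate 1, 2 or 3 it was 0.113, 0.209 and 0.308, and on dropping replicate 1, 2 or 3 of 4 week MAC-1+ HSCs 0.226, 0.272 and 0.243. Leaving out samples outside the comparison, which changes both the shared estimate of the spread and the set of genes tested, gave 0.113 and 0.109 when SS MAC-1- replicate 1 or 3 was dropped, 0.135, 0.124 and 0.132 for SS MAC-1 low replicate 1, 2 or 3 and 0.130 for 4 week MAC-1 low replicate 3. DESeq2 gave 0.00549 and limma-voom 0.107.

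The other comparisons of *Gfi1b* did not pass the threshold. With MAC-1 low set against MAC-1- HSCs at 4 weeks the log2 fold change was -1.75 (standard error 0.69, adjusted p = 0.609, edgeR), and limma-voom alone put it past the threshold (-2.32, adjusted p = 0.0750). With MAC-1+ set against MAC-1 low HSCs at 4 weeks it was -1.07 (standard error 0.71, adjusted p = 0.867, edgeR). This difference rested on 4 week MAC-1 low replicate 2, and without that sample it was 0.10 (adjusted p = 1, edgeR). Without it, the log2 fold change of MAC-1 low relative to MAC-1- HSCs at 4 weeks was -2.89 (adjusted p = 0.104, edgeR).

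In SS, MAC-1 low HSCs had slightly more *Gfi1b* on average than MAC-1- HSCs. The log2 fold change was 0.40 (standard error 0.74, adjusted p = 0.964, edgeR), with overlapping samples. The interaction with 4 weeks was -2.15 (standard error 1.02, unadjusted p = 0.0517, adjusted p = 0.576, edgeR), so that a difference between SS and 4 weeks was not shown. It was -3.29 (adjusted p = 0.330, edgeR) without 4 week MAC-1 low replicate 2. Each 4 week MAC-1+ sample was below each SS sample, with log2 fold changes of -1.44 against SS MAC-1- (adjusted p = 0.410, edgeR) and -1.85 against SS MAC-1 low HSCs (adjusted p = 0.357, edgeR), where 8.62% and 8.56% of the genes tested were lower without overlap. Between 4 week MAC-1- and SS MAC-1- HSCs it was 1.37 (adjusted p = 0.535, edgeR), and between 4 week MAC-1 low and SS MAC-1 low HSCs -0.77 (adjusted p = 0.866, edgeR), both with overlap.

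To set the levels of the paralogs beside each other, CPM were divided by the bases of exon of each gene, in kb. In 4 week MAC-1+ HSCs *Gfi1* stood at 16.8, 16.5 and 29.5 CPM per kb and *Gfi1b* at 7.84, 8.31 and 9.27 CPM per kb, so that *Gfi1* was the higher paralog in each sample. It was the higher paralog in 4 of the 16 samples, these 3 and 4 week MAC-1 low replicate 1 (6.90 against 5.29 CPM per kb). In 4 week MAC-1- HSCs *Gfi1b* stood at 30.0, 59.2 and 90.2 CPM per kb, while *Gfi1* had 0.177, 0 and 1.55 CPM per kb. The log2 ratio of *Gfi1* to *Gfi1b* per kb, with 0.5 counts added, averaged 1.25 ± 0.37 (SD, n = 3) for 4 week MAC-1+ HSCs, -1.25 ± 1.62 (SD, n = 4) for the MAC-1 low and -8.82 ± 3.93 (SD, n = 3) for the MAC-1- samples of that time. SS MAC-1 low HSCs averaged -2.18 ± 1.31 (SD, n = 3), and SS MAC-1- HSCs -7.81 ± 5.20 (SD, n = 3). Ratios of samples with 0 or 1 count of *Gfi1* depend on the counts added and give only a low value, not its size. Over all 16 samples the log2 CPM of the paralogs had a Pearson r of -0.49 and a Spearman rho of -0.54, a description over samples that share their populations.

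**Figure D3:**
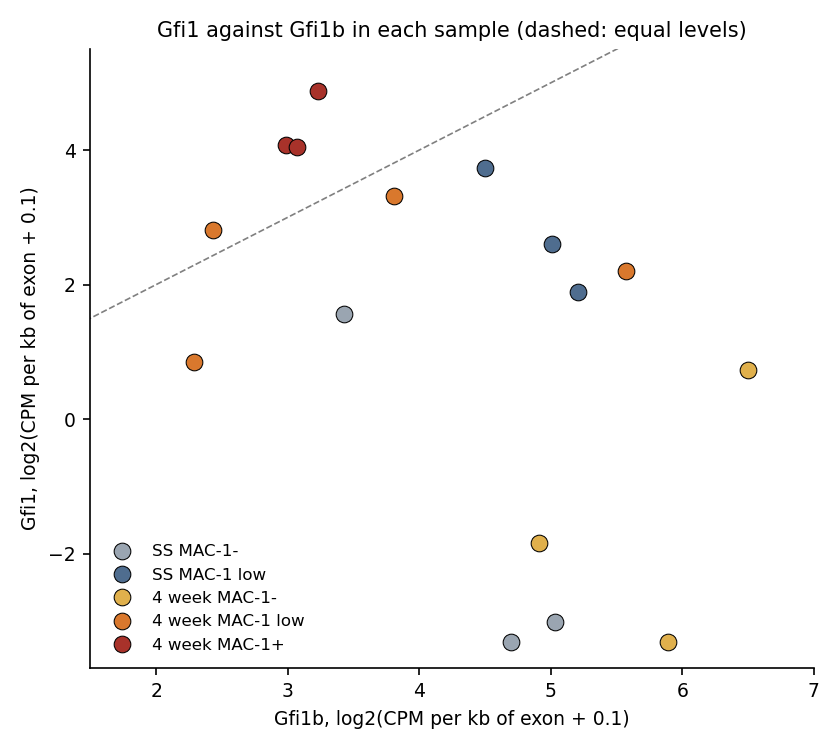
*Gfi1* against *Gfi1b* in each of the 16 samples, as log2(CPM per kb of exon + 0.1), coloured by population, with a dashed line of equal levels. The 3 samples of 4 week MAC-1+ HSCs and 1 of 4 week MAC-1 low HSCs lie above the line, and the 4 week MAC-1- samples lie low on the axis of *Gfi1*, with 30.0, 59.2 and 90.2 CPM per kb of *Gfi1b*, the last of these being the highest of all samples.

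The genes whose log2 CPM followed *Gfi1* most closely over the 16 samples, out of 11069 genes with a mean of at least 50 counts, were *Lsp1* (r = 0.84), *Gosr2* (0.82), *9930104L06Rik* (0.81), *Parp9* (0.80) and *Alcam* (0.80). *Lsp1* encodes an actin-binding protein of leukocytes, *Gosr2* a protein of vesicle transport, *Parp9* an ADP-ribosyltransferase family member that is induced by interferon and *Alcam* an adhesion molecule of HSCs. *Alcam* had 98.9, 112 and 53.8 CPM in 4 week MAC-1+ and 6.84, 1.06 and 6.94 CPM in 4 week MAC-1- HSCs (a log2 difference of 4.16, adjusted p = 0.119, edgeR). *Parp9* had 158, 84.5 and 129 against 13.1, 23.7 and 27.7 CPM in the same populations (a log2 difference of 2.53, adjusted p = 0.0642, edgeR). *Itgam* stood at rank 278 for *Gfi1* (r = 0.59). The samples differ in library depth and fall into 5 populations, and Spearman's rho kept 1 of these 5 genes among its first 5.

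For *Gfi1b* the most similar genes were *Gapdh* (r = 0.89), *Mif* (0.86), *Ssr4* (0.85), *Gm10080* (0.82) and *Uqcr11* (0.82). *Gapdh* encodes an enzyme of glycolysis, *Mif* a cytokine, *Ssr4* a subunit of the translocon-associated complex of the endoplasmic reticulum and *Uqcr11* a subunit of respiratory complex III. *Mif* had 769, 861 and 858 CPM in 4 week MAC-1- and 352, 266 and 379 CPM in 4 week MAC-1+ HSCs (a log2 difference of -1.32, adjusted p = 0.00345, edgeR). *Gapdh* had 319, 285 and 339 against 147, 127 and 214 CPM (a log2 difference of -0.95, adjusted p = 0.194, edgeR). By Spearman's rho, 2 of these 5 genes were among the first 5.

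The nearest protein-coding neighbours of both genes were read for changes shared with the locus. Next to *Gfi1*, *Evi5* (18758 bp away) differed by 2.21 on the log2 scale in MAC-1+ relative to MAC-1- HSCs at 4 weeks (adjusted p = 0.254, edgeR) and *Rpap2* (54818 bp away) by 0.00 (adjusted p = 1, edgeR). Next to *Gfi1b*, *Tsc1* (19245 bp away) differed by 1.30 (adjusted p = 0.498, edgeR) and *Gtf3c5* (25698 bp away) by -1.91 (adjusted p = 0.313, edgeR). None of these 4 genes passed the threshold there.

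Transcripts of the cofactors that GFI1 and GFI1B work with were present in all populations. All 16 listed cofactors were tested, 13 to 16 of them were detected per sample, and their summed level ran from 573 to 1078 CPM over the 16 samples. From MAC-1- to MAC-1+ HSCs at 4 weeks edgeR called 0 of them, though 4 had an unadjusted p under 0.05, while DESeq2 called *Rcor3*, *Rcor1* and *Ehmt2* higher, and limma-voom called *Hdac2* lower. Over all genes tested, 13.4% had an unadjusted p under 0.05. EdgeR called 1.19% of them higher and 2.06% lower, DESeq2 5.89% higher and limma-voom 3.44% lower. The median log2 fold change of the cofactors was 0.84, against 0.07 over all genes tested. Their summed level overlapped, with 724 to 1078 CPM in 4 week MAC-1+ and 743 to 771 CPM in 4 week MAC-1- HSCs. *Kdm1a*, the histone demethylase LSD1, had 38.8, 35.9 and 46.3 CPM in 4 week MAC-1+ and 33.5, 22.6 and 53.2 CPM in 4 week MAC-1- HSCs, with overlap (a log2 difference of 0.15, adjusted p = 0.957, edgeR). *Rcor3*, a CoREST protein, had 35.8, 47.7 and 63.5 against 8.35, 21.1 and 12.7 CPM, without overlap (a log2 difference of 1.80, adjusted p = 0.160, edgeR). *Hdac2*, a histone deacetylase, had 254, 198 and 129 against 295, 344 and 345 CPM, also without overlap. Its log2 difference was -0.76 (adjusted p = 0.249, edgeR). Of all genes tested, 10.2% were higher and 11.5% lower without overlap in this comparison. From MAC-1- to MAC-1 low HSCs in SS edgeR called 0 cofactors (2 with an unadjusted p under 0.05), DESeq2 2 and limma-voom 0. Over all genes tested edgeR called 0.00732% in each direction, DESeq2 6.78% and limma-voom 0, and 9.36% had such a p with edgeR.

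Of 13 factors listed as regulators of *Gfi1* or *Gfi1b*, 12 were tested. *Cebpa*, the one not tested, had at most 0.0918 CPM in any sample. In MAC-1+ relative to MAC-1- HSCs at 4 weeks edgeR called *Spi1* and *Lyl1* higher and *Gata1* lower, while 1.19% of all genes tested were called higher and 2.06% lower. The median of the list was 0.29, also with *Gata1* set to 3 counts in the samples at 0.

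*Spi1*, which encodes PU.1, a factor of myeloid and lymphoid development, had 1.51, 2.16 and 7.61 CPM in 4 week MAC-1- and 27.5, 52.6, 33.6 and 34.9 CPM in 4 week MAC-1 low HSCs. It had 56.2, 54.7 and 46.5 CPM in 4 week MAC-1+ HSCs, and in SS HSCs it was between 25.8 and 45.1 CPM in all 6 samples. Thus the 4 week MAC-1- samples stood below all others. *Spi1* rose in 4 week MAC-1+ (a log2 difference of 3.80, adjusted p = 0.00676, edgeR) and in 4 week MAC-1 low HSCs (3.31, adjusted p = 0.0529, edgeR) against 4 week MAC-1- HSCs. The latter call was the one such among the 3 lists, where edgeR called 0.161% of all genes tested higher. It was lost without 4 week MAC-1- replicate 1 or 2 (adjusted p of 0.221 and 0.312, edgeR) and on dropping replicate 2, 3 or 4 of 4 week MAC-1 low HSCs (0.104, 0.113 and 0.113). In MAC-1 low relative to MAC-1- HSCs of SS mice *Spi1* differed by 0.22 on the log2 scale (adjusted p = 0.987, edgeR), where *Gfi1* differed by 2.98.

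*Lyl1*, a bHLH factor of HSCs, had 13.6, 11.6 and 4.47 CPM in 4 week MAC-1- and 27.1, 40.3 and 29.7 CPM in 4 week MAC-1+ HSCs (a log2 difference of 1.71, adjusted p = 0.0969, edgeR). Its call was lost in each of the 16 fits without 1 sample, with adjusted p from 0.108 to 0.321. Against both SS populations *Lyl1* was called lower in 4 week MAC-1- HSCs and not called in 4 week MAC-1+ HSCs (edgeR). For 4 week MAC-1- HSCs edgeR called 30 of 13661 genes lower against SS MAC-1- and 32 against SS MAC-1 low HSCs. *Gata1*, the main factor of erythroid and megakaryocytic cells, had 26.2, 50.8 and 41.7 CPM in 4 week MAC-1- HSCs and 0 counts in the 3 samples of 4 week MAC-1+ HSCs (adjusted p = 0.0468, edgeR). That call was lost without 4 week MAC-1+ replicate 1, 2 or 3 (0.122, 0.145 and 0.153, edgeR) and without 4 week MAC-1- replicate 2 (0.105). *Gata1* also varied among SS HSCs, with 59.6, 52.8 and 0 CPM in MAC-1- samples. The stem cell factor *Gata2* had 217, 143 and 186 CPM in 4 week MAC-1+ and 175, 148 and 109 CPM in 4 week MAC-1- HSCs, with overlap (a log2 difference of 0.34, adjusted p = 0.823, edgeR).

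Of 24 genes listed as reported direct targets of GFI1 or GFI1B, both paralogs and *Spi1* among them, 22 were tested. In MAC-1+ relative to MAC-1- HSCs at 4 weeks edgeR called 2 higher, *Spi1* and *Hoxa9*, and 3 lower, among them *Rgs18* and *Gfi1b*, DESeq2 called 5 higher and 4 lower, and limma-voom 3 and 2. Over all genes edgeR called 1.19% higher and 2.06% lower, DESeq2 5.89% and 5.74%, and limma-voom 2.90% and 3.44%. The median of the list was 0.34, also with *Egr2* and *Elane*, each at 0 in all samples of one population, set to 3 counts there. *Hoxa9*, a homeobox gene that promotes self-renewal, had 236, 320 and 206 CPM in 4 week MAC-1+ and 144, 76.4 and 62.0 CPM in 4 week MAC-1- HSCs (a log2 difference of 1.43, adjusted p = 0.0418, edgeR). It lost its call without 4 week MAC-1- replicate 2 or 3 (0.191 and 0.188, edgeR) or 4 week MAC-1+ replicate 2 (0.145). *Rgs18*, a regulator of G protein signalling in platelets and megakaryocytes, had 3041, 1653 and 2239 CPM in 4 week MAC-1+ and 4321, 3751 and 4544 CPM in 4 week MAC-1- HSCs, and fell by 0.86 on the log2 scale (adjusted p = 0.0199, edgeR). The samples of both populations did not overlap for *Hoxa9* and *Rgs18*, which was also so for *Spi1* and *Gfi1b*. Of all genes tested, 10.2% were higher and 11.5% lower without overlap, so the lack of overlap alone does not set these genes apart.

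In the neighbouring comparisons fewer members of these lists were called, and fewer of all genes as well. From MAC-1 low to MAC-1+ HSCs at 4 weeks edgeR called 0 targets (1 with an unadjusted p under 0.05). DESeq2 and limma-voom called 0 too. Over all genes edgeR called 0, limma-voom 0.00732% and DESeq2 3.17%, and 6.85% had such a p with edgeR. In MAC-1 low relative to MAC-1- HSCs of SS mice edgeR called 0 targets (4 with an unadjusted p under 0.05), DESeq2 2 and limma-voom 0. Over all genes, edgeR called 0.00732% in each direction and limma-voom 0, 9.36% had an unadjusted p under 0.05 and DESeq2 called 6.78%. Tested members of the 3 lists in MAC-1+ relative to MAC-1- HSCs at 4 weeks are shown in the plot of log2 fold changes by list.

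**Figure D4:**
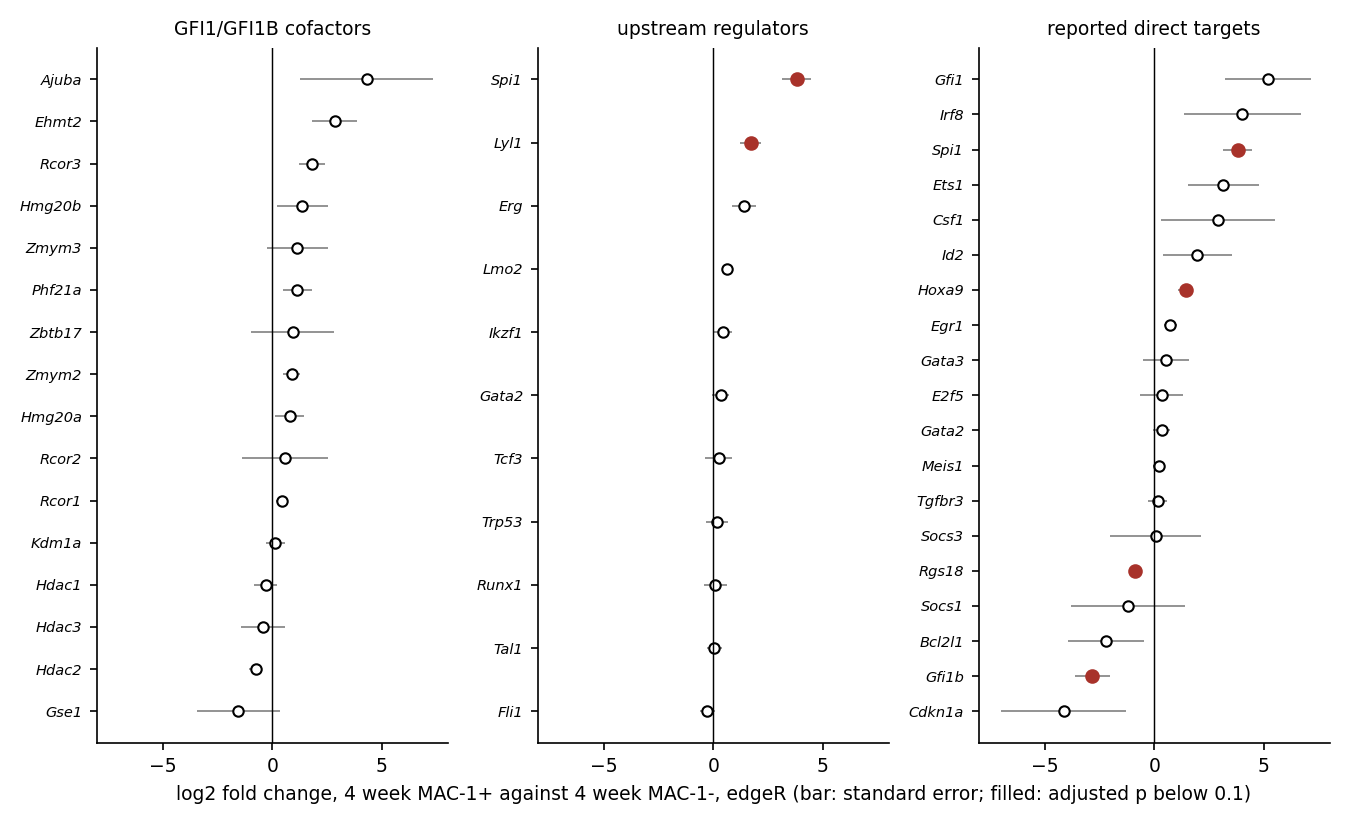
Log2 fold changes of the tested cofactors, upstream regulators and reported direct targets of GFI1 and GFI1B in MAC-1+ relative to MAC-1- HSCs at 4 weeks (edgeR, bars are standard errors, filled points have an adjusted p below 0.1). *Gata1*, *Egr2* and *Elane*, at 0 in all samples of one population, are among those not drawn. *Spi1* (3.80), *Lyl1* (1.71) and *Hoxa9* (1.43) are filled on the right and *Rgs18* (-0.86) and *Gfi1b* (-2.82) on the left.

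*Gfi1* and *Gfi1b* are also known from cells outside the HSC gate, so markers of such cells were read beside both genes. The summed level of 7 neutrophil genes was 164, 957 and 6974 CPM in the 3 samples of 4 week MAC-1+ HSCs, against 23.1 to 69.3 CPM in 4 week MAC-1-, 31.5 to 156 in 4 week MAC-1 low, 131 to 168 in SS MAC-1 low and 79.4 to 111 in SS MAC-1- HSCs. Of these genes 5 were tested, and edgeR called *S100a8* and *S100a9* higher in MAC-1+ than in MAC-1- HSCs at 4 weeks. In that comparison edgeR called 1.19% of all genes tested higher. The 6 genes of granulocyte progenitors summed to 106, 186 and 911 CPM in 4 week MAC-1+ samples and to 107 to 265 CPM in all others. Replicate 3 of 4 week MAC-1+ HSCs, which had the most *Gfi1*, was the one sample with much *Elane* (197 CPM) and *Mpo* (160 CPM). In replicates 1 and 2 *Elane*, *Mpo*, *Ctsg* and *Cebpe* were at 0 while *Gfi1* had 53.6 and 52.4 CPM. The other members of that list were detected there, *Prtn3* at 92.8 and 186 CPM and *Ms4a3* at 13.6 and 0.251 CPM. *Prtn3*, which encodes a granule protease, had 351 CPM in replicate 3 and 66.7 to 89.3 CPM in 4 week MAC-1- HSCs, and was the one called among the 4 tested (adjusted p = 0.0900, edgeR). Without replicate 3 the log2 fold change of *Gfi1* against 4 week MAC-1- HSCs was 4.86 (adjusted p = 0.400, edgeR). In that fit *Spi1*, *Hoxa9* and *Rgs18* kept their calls (adjusted p of 0.0198, 0.0601 and 0.0967, edgeR). *Gfi1b*, *Lyl1* and *Gata1* lost theirs (0.243, 0.164 and 0.153, edgeR).

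The 10 megakaryocyte genes had their highest and lowest sums in the same populations as *Gfi1b*. They summed to 4331 to 6774 CPM in 4 week MAC-1-, 377 to 874 in 4 week MAC-1 low and 159 to 238 CPM in 4 week MAC-1+ HSCs, against 624 to 1138 in SS MAC-1- and 325 to 703 CPM in SS MAC-1 low HSCs. All 10 were tested. From MAC-1- to MAC-1+ HSCs at 4 weeks edgeR called *Pf4*, *Itga2b* and *Gp1bb* lower, where it called 2.06% of all genes tested lower. *Gp1bb* was at 0 in each 4 week MAC-1+ sample. The part of the megakaryocyte genes in the fall of *Gfi1b* was not tested. The 4 week MAC-1 low sample with high *Gfi1b*, replicate 2, had a sum of 822 CPM, and replicate 4, with the lowest *Gfi1b* of all samples, one of 874 CPM. The 9 erythroid genes summed to 49.1 to 80.8 CPM in 4 week MAC-1- and 1.44 to 121 in 4 week MAC-1+ HSCs, and 13.6 to 52.3, 23.5 to 105 and 10.9 to 142 CPM in 4 week MAC-1 low, SS MAC-1 low and then SS MAC-1- HSCs. *Gata1* was the called one among the 7 tested.

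**Figure D5:**
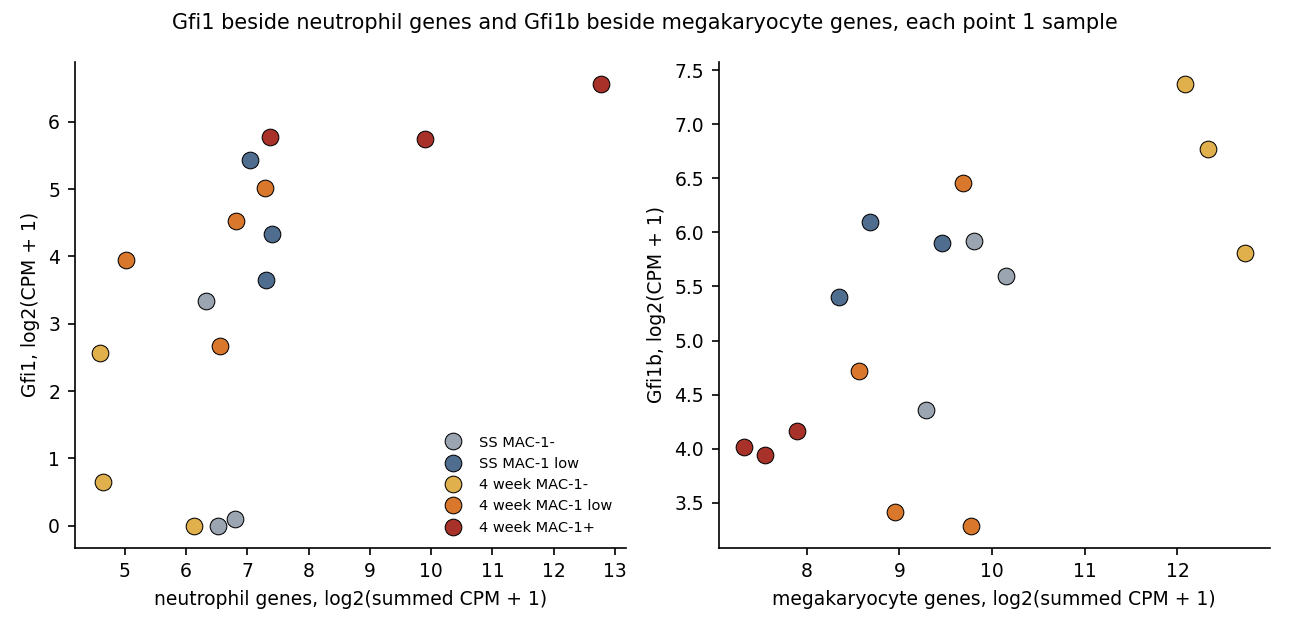
Left, *Gfi1* as log2(CPM + 1) against the summed level of 7 neutrophil genes as log2(summed CPM + 1). Right, *Gfi1b* against the summed level of 10 megakaryocyte genes on the same scales, each point being 1 of the 16 samples. In 4 week MAC-1+ HSCs neutrophil genes spread from 164 to 6974 CPM, and the 3 samples of 4 week MAC-1- HSCs lie apart at the right of the megakaryocyte axis (4331 to 6774 CPM).

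The remaining lists were read in the same way. Calls are those in MAC-1+ relative to MAC-1- HSCs at 4 weeks, where edgeR called 1.19% of all genes tested higher and 2.06% lower. T and NK cell genes summed to 16.1 to 176 CPM in 4 week MAC-1+ and 323 to 644 in 4 week MAC-1- HSCs. They summed to 216 to 390 CPM in the other populations. Of these 8 genes 4 were tested, with *Nkg7* called lower. Only 1 to 3 of them were detected per 4 week MAC-1- sample, and in replicate 1 *Nkg7* made up the whole sum. *Cd3e* was at 0 in all 4 week samples. Genes of B cells summed to 7.27 to 170 CPM over all samples, and those of lymphoid progenitors to 55.4 to 243. Genes of monocytes and macrophages summed to 253 to 283 CPM in 4 week MAC-1+ and 129 to 157 in 4 week MAC-1 low HSCs. In 4 week MAC-1- HSCs they summed to 29.1 to 64.5 CPM. In SS HSCs they summed to 18.2 to 97.6 CPM in MAC-1 low and 40.9 to 107 in MAC-1- samples. Of these 7 genes only *Ms4a6c* was tested, and it was called higher. It made up the whole sum in replicate 2 of 4 week MAC-1 low and replicate 1 of 4 week MAC-1- HSCs. *Csf1r* was at 0 in all 4 week MAC-1+ samples. The HSC genes themselves summed to 2880 to 4017 CPM in 4 week MAC-1+ and 981 to 1073 in 4 week MAC-1- HSCs, and edgeR called 6 of 10 higher. They summed to 1745 to 2603 CPM in the other populations. *Cd48*, whose product the gate selects against, had 71.7 to 133 CPM in 4 week MAC-1-, 60.3 to 107 in 4 week MAC-1 low and 0 to 45.4 in 4 week MAC-1+ HSCs, and 0 to 42.2 CPM in SS samples. It was not called (a log2 difference of -1.76 in MAC-1+ relative to MAC-1- HSCs at 4 weeks, adjusted p = 0.783, edgeR). *Ptprc* (CD45), which HSCs express, was called higher there, with 719 to 1043 CPM against 254 to 544. The part of these lists in the values of *Gfi1* and *Gfi1b* was not tested.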

How the data were processed

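RNA of sorted HSCs was sequenced in 16 samples, which were assigned to 5 populations by their labels. The deposited values are counts of reads per gene, unnormalized, in 1 table that the authors made with STAR inside an nf-core workflow. For the build, the annotation and the counting program, the answer is: not given in the sources used here. PCR copies are counted, since there were no molecular identifiers. Both genes, the gene lists and the tests were chosen with earlier results of these data known.

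The model was fitted with edgeR 4.0.16 in R 4.3.3 (TMM, default filter on low counts, robust quasi-likelihood test, Benjamini-Hochberg adjustment over 13661 genes, checked on simulated data). CPM were TMM-scaled, and correlations used log2 CPM with a prior count of 2. Gene models came from GENCODE M21, which held 98.0% of the identifiers, and promoters from RefSeq. Named genes were both paralogs, called or role-defining list members, the 5 genes of highest Pearson r, the nearest coding neighbours and *Itgam*. The alternatives tried were limma-voom (limma 3.58.1), DESeq2 1.42.0 as a test or for size factors, other filters, a fit of the compared groups, a replicate block, thinned counts, a covariate for detected genes, leaving out each sample, other counts or lengths in the ratio and Spearman's rho. 1 of the listed targets is counted but not reported or drawn here. Figures were drawn with matplotlib 3.10.9.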

Additional observations from a re-analysis of the deposited data

How the results depend on the processing

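Values are log2 fold changes from edgeR unless another tool is named. For *Gfi1* in MAC-1+ relative to MAC-1- HSCs at 4 weeks, DESeq2 (5.24) and limma-voom (7.32) put the difference past the threshold, and for the mean of both MAC-1 low against MAC-1- differences DESeq2 did (3.17). For 4 week MAC-1+ over SS MAC-1- HSCs DESeq2 (4.48) did so too, and with each sample left out *Gfi1* ran from 3.85 to 10.75. For MAC-1- HSCs at 4 weeks relative to SS *Gfi1* turned to 0.25 with limma-voom and ran from -3.48 to 5.57 with each sample left out, the highest without SS MAC-1- replicate 2. A fit of only these groups was not run for it, as *Gfi1* did not pass the filter there. For MAC-1 low HSCs at 4 weeks relative to SS it turned to 0.052 with the replicate number as a block and ran from -0.82 to 0.23, the highest without SS MAC-1 low replicate 2. The interaction of *Gfi1* was -0.61 with limma-voom and ran from -5.97 to 3.07, below 0 without SS MAC-1- replicate 2, 4 week MAC-1- replicate 1 or 2 or 4 week MAC-1 low replicate 3. *Gfi1b* in MAC-1+ relative to MAC-1- HSCs at 4 weeks lost its call with limma-voom (-2.67), DESeq2 size factors (-2.75), the replicate block (-2.75) and detected genes as a covariate (-2.81), and ran from -3.14 to -2.40 with each sample left out. In MAC-1 low relative to MAC-1- HSCs at 4 weeks limma-voom (-2.32) put *Gfi1b* past the threshold, and in MAC-1+ relative to MAC-1 low HSCs at 4 weeks it ran from -1.39 to 0.10, turned without 4 week MAC-1 low replicate 2. For MAC-1+ against MAC-1- HSCs at 4 weeks edgeR called 162 genes higher and 282 lower, DESeq2 813 and 792, limma-voom 396 and 470, a fit of the compared groups 68 and 86, and the block 104 and 223. There, a fit of the compared groups left *Spi1*, *Hoxa9*, *Rgs18* and *Lyl1* with adjusted p of 0.105, 0.150, 0.163 and 0.315, and the block left *Gfi1b*, *Lyl1* and *Gata1* with 0.130, 0.180 and 0.111. For *Spi1* in MAC-1 low against MAC-1- HSCs at 4 weeks these fits gave 0.176 and 0.195. Of all results under alternatives, 577 kept their direction and side of the threshold, 10 turned, 6 passed it, 16 lost it, and 2, the overlaps of similar genes under Spearman's rho, moved. Deviations of samples with equal replicate numbers correlated at -0.0249 to 0.0397 over 30 pairs, with 0 pairs over 0.1. The running sample numbers in the labels do not always follow the replicate numbers. A grouping by them was not tested, so a pairing of samples is not excluded. The block by replicate number changed no call of *Gfi1* or *Gfi1b* other than that of *Gfi1b* given above. Samples with 0 or 1 count of *Gfi1* limit what its fold changes can show.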
